A study of Mus musculus with 6 samples.

Results

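The genes described here are 40 genes of the cell cycle and of DNA replication, taken by name from the 54532 genes in a table of RNA-seq levels of mouse primary macrophages. They comprise 10 DNA replication genes, 22 mitosis genes, 6 genes of the G1 phase (5 cyclin D and cyclin E genes with E2f1) and the 2 stress-inducible polo-like kinase genes Plk2 and Plk3. The names chose them, and each name matched 1 gene. The rmMETRNL group was 3 samples of cells from wild-type mice that were cultured with rmMETRNL for 6 h and then met the yeast Candida albicans for a further 6 h. The vehicle group was 3 samples that received vehicle in place of rmMETRNL and then met the same yeast. METRNL (meteorin-like) is a secreted protein. The fungus was thus common to both groups, and macrophages without it were not analysed here. The labels give neither the organ the macrophages came from, nor a dose, nor whether samples of a group were separate animals or cultures, so the spread behind each p-value is that between samples and could be technical. The table's columns carry short names, which were read as rmMETRNL and vehicle by their letters, and each direction below rests on that reading.

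A cell that divides copies its DNA in S phase and separates the copies in mitosis. The MCM proteins form the ring-shaped helicase that opens DNA at replication origins, PCNA is the sliding clamp that holds DNA polymerases on the template, and ribonucleotide reductase and thymidylate synthase make DNA building blocks. Transcripts of these genes are known to be switched on before and during S phase by E2F transcription factors. Those of cyclin B, CDK1, the Aurora kinases, the polo-like kinase PLK1 and the spindle and kinetochore proteins are made later, in G2 phase and mitosis. Mature macrophages are mostly resting cells, although some resident macrophages can divide in their tissue. PCNA also works in DNA repair, and MCM genes can be transcribed in cells that have entered G1 phase, so the replication genes alone are a less strict sign of division than the mitosis genes.

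Levels are given in FPKM, fragments per kilobase of gene scaled to library size, which allows genes of different length to be compared. Each library held between 13235001 and 18145733 reads recovered from the deposited values, so that 10 reads on a gene of 1 kb correspond to 0.549 to 0.748 FPKM. All 8 macrophage markers had a mean above 1 FPKM, with summed levels of 9381 to 9667 FPKM in the rmMETRNL libraries and 9613 to 10159 FPKM in the vehicle libraries. Nearly all of that came from Lyz2, Cd14 and Cd68. Fcgr1 and Mertk averaged 1.28 and 2.46 FPKM, below the B cell gene Cd79a at 2.67 FPKM. Of the markers of other cells that could carry cycling transcripts, 6 T cell genes summed to 3.94 to 4.55 FPKM with rmMETRNL and 3.05 to 3.30 FPKM with vehicle, and 5 B cell genes to 6.05 to 6.57 FPKM and 5.07 to 6.03 FPKM. The groups did not overlap in Trbc2, a T cell receptor gene, in the neutrophil gene S100a9 (log2 fold change 0.49) or in the fibroblast gene Col3a1. All were higher with rmMETRNL, and each was 1 gene of its list, of 6, 6 and 7 genes. Over all genes with a read, 13.1% did not overlap in either direction. The groups also did not overlap in 5 of the 8 macrophage markers, against 21.5% of all genes tested. Of these, Csf1r and Adgre1 were higher and Cd68, Cd14 and Mertk lower with rmMETRNL, and Cd14 (log2 fold change -0.20) passed voom (adjusted p = 0.0468) but not limma (adjusted p = 0.189). The T cell receptor component Cd3e had 0.0631 to 0.215 FPKM with rmMETRNL and 0.0485 to 0.0733 FPKM with vehicle. Its reads numbered 3 to 13 a library, and those of Trbc2 9 to 21. Cd3d had 0.211 to 0.319 FPKM with rmMETRNL and 0.206 to 0.509 FPKM with vehicle, and Cd3g 0.0585 to 0.330 FPKM and 0.0840 to 0.206 FPKM. The groups overlapped in Cd3e, Cd3d and Cd3g. Sums of 7 fibroblast genes were 8.20 to 9.02 FPKM with rmMETRNL and 8.21 to 8.78 FPKM with vehicle. Those of 6 neutrophil genes were 117 to 125 FPKM and 105 to 114 FPKM, nearly all from S100a8 and S100a9. S100a8 overlapped between groups, with 85.5 to 86.6 FPKM with rmMETRNL and 80.6 to 88.9 FPKM with vehicle. So did the neutrophil gene Ly6g, at 2 to 7 reads a library. Mast cell genes summed to 16.7 to 18.2 FPKM with rmMETRNL and 13.98 to 18.8 FPKM with vehicle, and mesothelial, endothelial, NK cell and erythroid lists each to at most 3.46 FPKM in every library. The neutrophil gene Elane and the erythroid gene Hbb-bs were listed at 0 in all 6 libraries. The neutrophil genes Mpo and Camp and the erythroid gene Klf1 each had at most 10 reads in a library. Cd34, a progenitor gene, had 0.388 to 0.568 FPKM with rmMETRNL and 0.344 to 0.701 FPKM with vehicle. The part of other cells in the results below was not tested. The protocol text names retinas, which the other labels do not, and the photoreceptor gene Crx was listed at 0 in all 6 libraries. Pde6b, a gene of rod photoreceptors, had 0.380 to 0.711 FPKM with rmMETRNL and 0.283 to 0.420 FPKM with vehicle, and Gnat1, Opn1sw and Rcvrn had at most 3 reads in a library.

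Most mitosis genes lay below 1 FPKM in these cultures, although the medians of both roles stood above the middle of all protein-coding genes. Cultures known to divide or to rest were not compared. Replication genes stood at a median of 1.50 FPKM (means over the 6 libraries, range 0.291 to 69.8 FPKM), and mitosis genes at a median of 0.409 FPKM, with a range of 0.0180 to 4.32 FPKM. Of the 22 mitosis genes, 20 had a mean below 1 FPKM, as had 3 of the 10 replication genes and 3 of the 6 G1 genes. Among the 22046 protein-coding genes of the table, 61.3% lay below 1 FPKM and the median gene at 0.174 FPKM. On that scale the replication genes had a median percentile of 64.9 and the mitosis genes of 55.1, while Plk2 and Plk3 reached 98.4. In RNA from whole cultures, a low level in all cells and a higher level in a few of them cannot be told apart, nor can fewer cycling cells and less RNA per cycling cell.

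**Figure D1:**
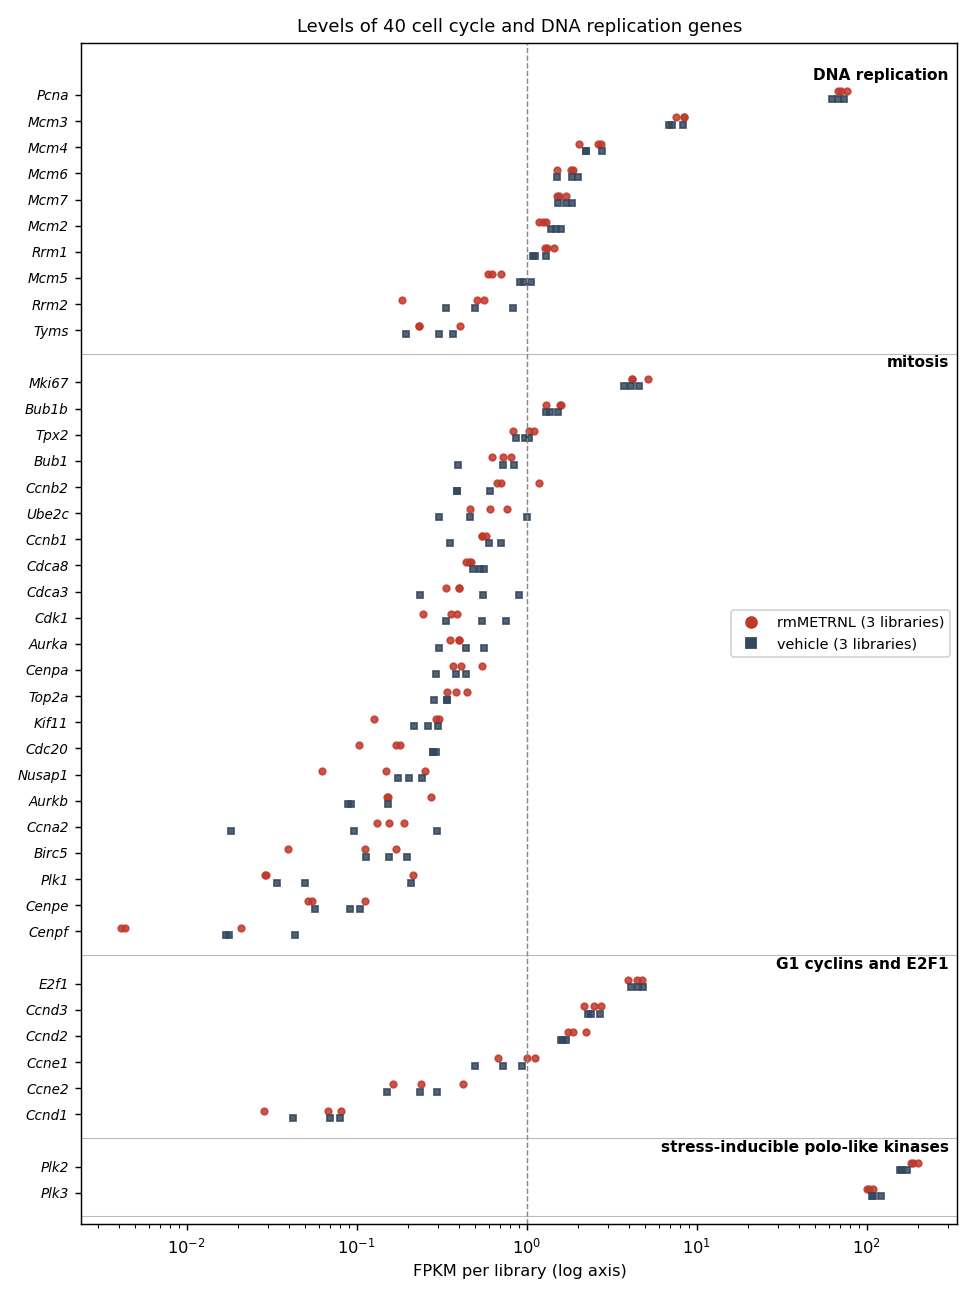
Level of each of the 40 genes in FPKM on a logarithmic axis, with 3 rmMETRNL libraries as circles and 3 vehicle libraries as squares, grouped by role. The dashed line marks 1 FPKM, and 26 of the 40 genes have a mean left of it, 20 of them mitosis genes.

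No member differed between rmMETRNL and vehicle by the test. Limma on log2(FPKM + 1), fitted to the 9867 genes that averaged 1 FPKM or more, called 0 of the 14 members tested at an adjusted p of 0.05, against 0% of all genes tested. Their adjusted p-values ran from 0.233 to 0.992, and their log2 fold changes, rmMETRNL over vehicle, from -0.15 to 0.21 with a median of 0.03, where the median of all genes tested was -0.0056. Of the 14, 8 were positive and 6 negative, and 1, Plk2, had an unadjusted p under 0.05, which 14.7% of all genes tested had. Limma with voom weights on the recovered reads called 0 of the 14, against 0.618% of all genes. In 3 of the 14 the values of the groups did not overlap, 21.4% against 21.5% of all genes tested. These were Ccnd2 and Plk2, higher with rmMETRNL in a background of 10.9%, and Mcm2, lower with rmMETRNL in a background of 10.6%. The other 26 members entered no test at this filter, and without a filter 0 of the 40 passed, against 0.0201% of all genes.

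**Figure D2:**
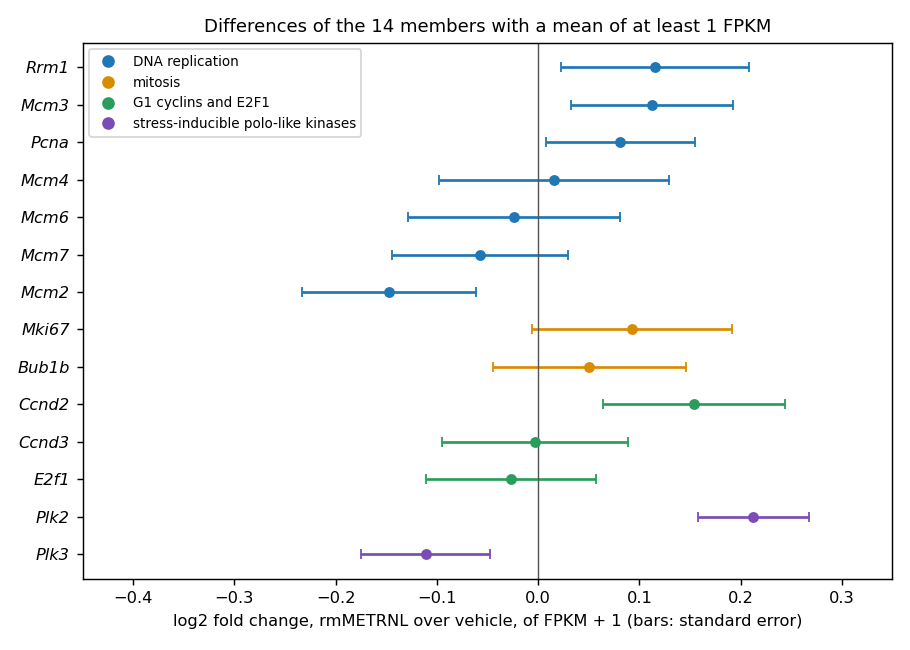
Log2 fold change of FPKM + 1, rmMETRNL over vehicle, of the 14 members with a mean of at least 1 FPKM, with bars of 1 standard error and colours by role. Points lie between -0.15 (Mcm2) and 0.21 (Plk2), and no gene passed at an adjusted p of 0.05.

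Promoter sequences of a few replication and mitosis genes are shown because the E2F and CHR motifs were found at different shares in these roles, with exceptions given below. RefSeq promoter windows (GRCm38.p6, 250 bases before to 50 after the start, 27025 genes) were matched for 33 of the 40 members. Both strands were searched for E2F motifs (TTTGGCGC, TTTCGCGC, TTTCCCGC or TTTGCCGC, and as a separate search the core GGCGGGAA, which can overlap the third), for the CHR motif of mitosis genes (TTTGAA) and for the CCAAT box (CCAAT). A match is a string of letters and no proof of binding. In the stretches below, written 5′ to 3′ on the strand of the gene, capitals mark these motifs on either strand. The first is Mcm3, the most abundant of the helicase genes, at chr1:20820283-20820441, minus strand. It holds CCAAT boxes and, after the start, letters matched by the core and by an E2F motif that overlaps it. A further E2F motif of Mcm3, TTTGGCGC at position 39 from the start, lies past the end of the stretch. Mcm5 lies at chr8:75109344-75109531, plus strand, and Mcm6 at chr1:128359703-128359827, minus strand, each with a pair of E2F motifs that overlap.
Mcm3: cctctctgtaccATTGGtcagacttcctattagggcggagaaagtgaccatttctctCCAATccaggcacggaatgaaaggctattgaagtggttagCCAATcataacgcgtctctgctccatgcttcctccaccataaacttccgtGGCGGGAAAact
Mcm5: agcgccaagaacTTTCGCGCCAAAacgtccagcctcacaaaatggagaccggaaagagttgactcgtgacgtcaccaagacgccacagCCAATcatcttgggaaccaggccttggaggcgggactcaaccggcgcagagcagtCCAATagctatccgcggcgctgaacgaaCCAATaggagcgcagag
Mcm6: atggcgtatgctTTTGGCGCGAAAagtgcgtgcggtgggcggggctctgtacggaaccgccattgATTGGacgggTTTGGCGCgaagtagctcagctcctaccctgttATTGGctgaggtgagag

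The mitosis genes Ccnb2, Cdc20 and Mki67 are shown for contrast, at chr9:70421533-70421733, chr4:118437335-118437408 and chr7:135716460-135716579, all on the minus strand. Each holds the CHR motif and CCAAT boxes, and none holds an E2F motif as searched. In Cdc20 the CHR motif starts 18 bases before the transcript start, between CCAAT boxes at 53 and 8 bases before it.
Ccnb2: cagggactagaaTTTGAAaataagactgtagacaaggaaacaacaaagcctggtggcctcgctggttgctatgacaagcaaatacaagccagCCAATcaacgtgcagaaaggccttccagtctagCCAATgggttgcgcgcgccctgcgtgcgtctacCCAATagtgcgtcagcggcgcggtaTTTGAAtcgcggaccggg
Cdc20: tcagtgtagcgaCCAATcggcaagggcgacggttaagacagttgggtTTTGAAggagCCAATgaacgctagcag
Mki67: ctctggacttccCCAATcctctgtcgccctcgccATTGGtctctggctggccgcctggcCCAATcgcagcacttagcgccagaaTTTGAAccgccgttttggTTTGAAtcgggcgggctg

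Over the matched windows, an E2F motif was found in 4 of 9 replication genes (44.4%; Mcm3, Mcm5, Mcm6 and Mcm7) and in 1 of 19 mitosis genes (5.26%; Cdk1), where 2.60% of all genes in the promoter table had it. The CHR motif was found in 1 of 9 replication genes (11.1%; Mcm2) and in 14 of 19 mitosis genes (73.7%), against 20.2% of all genes. All 14 also held a CCAAT box, a pairing that 7.97% of all genes had. The CCAAT box alone did not separate the roles, with 8 of 9 replication genes (88.9%) and 17 of 19 mitosis genes (89.5%), against 41.1% of all genes. The mitosis genes whose windows held no CHR motif were Birc5, Bub1, Ccnb1, Cenpe and Nusap1. The windows of Birc5, Nusap1, Tyms, Ccne1, Plk2 and Plk3 held none of the motifs searched. Nor did that of E2f1, whose RefSeq start lies 466 bases inside the gene as the table has it. The start also lies inside the gene by 539 bases in Mcm7, 629 in Cdca3 and 2394 in Cdca8, and within 300 bases of the gene's start in the other 29 of the 33 members. In longer lists of cell cycle genes, there was an E2F motif in 14 of 38 further replication genes (36.8%) and 4 of 42 further mitosis genes (9.52%), and a CHR motif in 7 of 38 (18.4%) and 30 of 42 (71.4%).

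**Figure D3:**
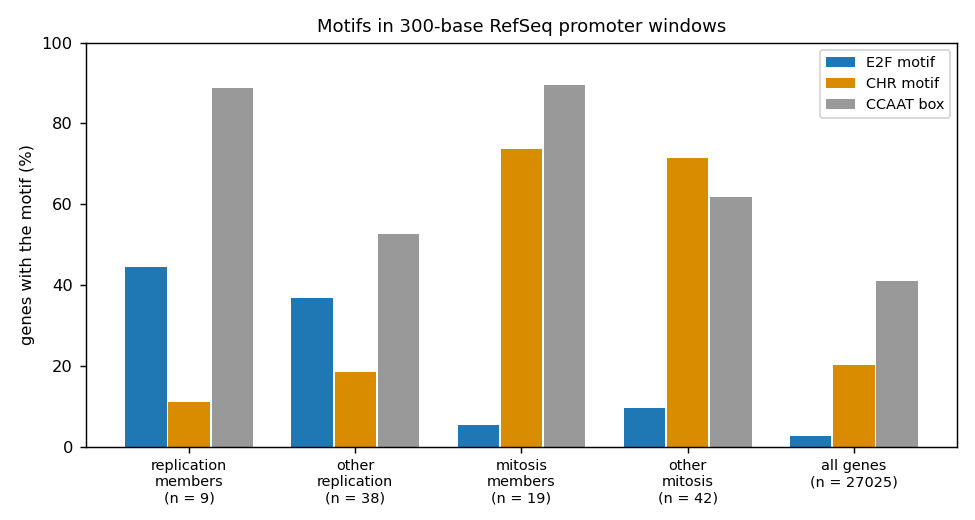
Share of genes, in percent, whose 300-base RefSeq promoter window holds an E2F motif in any of 4 long forms, the CHR motif or the CCAAT box, for replication and mitosis members, for the 2 longer lists and for all 27025 genes. The E2F bar is 44.4% in replication members and 5.26% in mitosis members, and the CHR bar 11.1% and 73.7%.

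Among the replication genes, Pcna stood far above the rest. It had 70.8, 76.8 and 67.8 FPKM in rmMETRNL libraries 1, 2 and 3, against 67.6, 62.6 and 73.4 FPKM in vehicle libraries 1, 2 and 3. The groups overlapped, and its log2 fold change of 0.08 (SE 0.07) did not pass (limma adjusted p = 0.651). In 6 of 6 libraries its level was 8.02 to 10.2 times that of Mcm3, the next replication gene. Of its 31-base words, 38.0% occur in another gene, most of them in the pseudogene Pcna-ps2, so part of its reads could belong to that copy or the reverse.

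The 6 subunit genes of the MCM helicase differed in level, although the proteins work in a ring that holds a copy of each. Mcm3 had 8.40, 7.57 and 8.46 FPKM with rmMETRNL, against 8.32, 6.92 and 7.19 FPKM with vehicle (log2 fold change 0.11, SE 0.08, limma adjusted p = 0.561). Its level was above that of each other subunit in 6 of 6 libraries, 2.48 to 4.15 times that of Mcm4 and 6.48 to 13.5 times that of Mcm5. Mcm4 followed with 2.03, 2.65 and 2.72 FPKM with rmMETRNL, against 2.23, 2.79 and 2.25 FPKM with vehicle. Mcm6 had 1.83, 1.87 and 1.52 FPKM with rmMETRNL, against 1.51, 1.84 and 2.01 FPKM with vehicle. Both genes overlapped between groups. Mcm7, which shares 37.6% of its 31-base words with the gene Gm5487 and 12.6% of its exon bases with Ap4m1, had 1.56, 1.71 and 1.51 FPKM with rmMETRNL, against 1.71, 1.84 and 1.54 FPKM with vehicle. In order of level Mcm3 came first and Mcm4 second, Mcm6, Mcm7 and Mcm2 overlapped in their ranges over the 6 libraries, and Mcm5 lay below them all. The places of Mcm2, Mcm7 and Mcm4 depend on gene length. The length of Mcm2 in the table is 6956 bases and its longest coding transcript 3371 bases, and for Mcm7 these are 4426 and 2962 bases. With the longest coding transcript as length, Mcm3 was 2.72 to 4.06 times as high as Mcm2. It was then 3.11 to 4.65 times as high as Mcm7 and 3.07 to 5.13 times as high as Mcm4, so Mcm4 was no longer clearly second.

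Mcm2 and Mcm5 were the helicase genes whose groups did not overlap. Mcm2 had 1.29, 1.18 and 1.25 FPKM in rmMETRNL libraries 1, 2 and 3, against 1.48, 1.39 and 1.59 FPKM in vehicle libraries 1, 2 and 3. All 3 rmMETRNL values lay below the vehicle values, but the log2 fold change of -0.15 (SE 0.09) did not pass (limma adjusted p = 0.476). Mcm5 had 0.709, 0.590 and 0.625 FPKM with rmMETRNL, against 0.909, 1.07 and 0.963 FPKM with vehicle. These values rest on 44, 37 and 37 reads with rmMETRNL and 55, 57 and 70 reads with vehicle, and its mean of 0.811 FPKM kept it out of the test. Fitted without a filter on low values, its log2 fold change was -0.27 (adjusted p = 0.528). Over all 40 members the groups did not overlap in 7 (17.5%), 3 higher and 4 lower with rmMETRNL, against 13.1% of all genes with a read.

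The enzymes that supply DNA building blocks were low. Rrm1, the large subunit of ribonucleotide reductase, had 1.33, 1.28 and 1.45 FPKM with rmMETRNL, against 1.09, 1.30 and 1.12 FPKM with vehicle (log2 fold change 0.11, SE 0.09, limma adjusted p = 0.608), with an overlap between the groups. Rrm2, the small subunit, whose level limits the enzyme in S phase, had 0.511, 0.184 and 0.560 FPKM with rmMETRNL, against 0.500, 0.837 and 0.337 FPKM with vehicle. Rrm1 was 1.56 to 6.95 times as high as Rrm2 in 6 of 6 libraries, and 3.40 to 15.2 times with the longest coding transcript as length. Rrm2 rests on 8 to 31 reads per library and shares 15.4% of its words with 13 other genes. Tyms, thymidylate synthase, had 0.232, 0.408 and 0.233 FPKM with rmMETRNL, against 0.195, 0.369 and 0.307 FPKM with vehicle, from 18 to 39 reads, and shares 15.1% of its words with other genes, first of them Tyms-ps.

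Mki67, which encodes the Ki-67 protein of the surface of mitotic chromosomes and is the usual marker of cycling cells, was the most abundant mitosis gene. It had 4.15, 4.19 and 5.16 FPKM in rmMETRNL libraries 1, 2 and 3, against 4.10, 4.60 and 3.75 FPKM in vehicle libraries 1, 2 and 3. The groups overlapped, and the log2 fold change of 0.09 (SE 0.10) did not pass (limma adjusted p = 0.711). The highest value was that of rmMETRNL library 3, and without it the log2 fold change was 0.01. In that library long genes tended to be higher, with a correlation across 9867 genes of 0.203 between log2 gene length and its deviation from the mean of the 6 libraries, where the other 5 libraries lay between -0.140 and 0.0534. Mki67 is 10061 bases long in the table, against a median of 3766 bases over all genes tested, and the part of gene length in its value was not tested. Rrm1, at 11012 bases, was also highest in that library, and without it had a log2 fold change of 0.09.

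Mki67 lay well above the other mitosis genes. Top2a, the topoisomerase that untangles replicated chromosomes, had 0.385, 0.339 and 0.449 FPKM with rmMETRNL, against 0.286, 0.340 and 0.341 FPKM with vehicle. Mki67 lay 10.8 to 14.4 times above it in 6 of 6 libraries, and 6.24 to 8.32 times when reads were divided by the length of the longest coding transcript of each gene. Bub1b, a kinase-like protein of the spindle checkpoint, was the only other mitosis gene with a mean above 1 FPKM. It had 1.29, 1.57 and 1.59 FPKM with rmMETRNL, against 1.30, 1.36 and 1.53 FPKM with vehicle (log2 fold change 0.05, SE 0.10, limma adjusted p = 0.849). Mki67 was 2.45 to 3.37 times as high as Bub1b. Of the 1133 to 1362 reads that fell on the 22 mitosis genes in a library, Mki67 alone took 619 to 770.

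Cyclin B and its kinase, the engine of entry into mitosis, were low, each gene with a mean below 1 FPKM. Cdk1 had 0.391, 0.362 and 0.246 FPKM with rmMETRNL, against 0.548, 0.758 and 0.334 FPKM with vehicle. Ccnb1 had 0.549, 0.574 and 0.544 FPKM with rmMETRNL, against 0.704, 0.355 and 0.599 FPKM with vehicle, and shares 46.9% of its words with other genes, first of them Ccnb1-ps. Both overlapped between groups, on 18 to 50 reads a library for Cdk1 and 20 to 46 for Ccnb1. Ccnb2 had 1.18, 0.666 and 0.705 FPKM with rmMETRNL, against 0.388, 0.391 and 0.610 FPKM with vehicle. Its 3 rmMETRNL values were all above the vehicle values, from 28, 16 and 16 reads with rmMETRNL and 9, 8 and 17 reads with vehicle, and fitted without a filter its log2 fold change of 0.33 did not pass (adjusted p = 0.610). Ccna2, cyclin A of S phase and G2, averaged 0.148 FPKM on 1 to 22 reads a library, and shares 12.5% of its exon bases with Exosc9.

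Genes of the later steps of mitosis were low as well. Cdc20, the activator of the anaphase-promoting complex, had 0.103, 0.171 and 0.180 FPKM with rmMETRNL, against 0.283, 0.280 and 0.294 FPKM with vehicle. The rmMETRNL values were all below the vehicle values, on 3, 5 and 5 reads with rmMETRNL and 8, 7 and 10 reads with vehicle, and 27.4% of its words occur in other genes. Fitted without a filter, its log2 fold change of -0.16 did not pass (adjusted p = 0.463). Ube2c, the ubiquitin-conjugating enzyme of the same complex, had 0.767, 0.613 and 0.467 FPKM with rmMETRNL, against 0.305, 1.01 and 0.465 FPKM with vehicle, and overlaps Tnnc2 over 22.8% of its exon bases. Cdca8, also called borealin, a subunit of the chromosomal passenger complex, had 0.472, 0.443 and 0.456 FPKM with rmMETRNL, against 0.484, 0.535 and 0.562 FPKM with vehicle. Those groups did not overlap either, and the difference did not pass without a filter (log2 fold change -0.07, adjusted p = 0.778). The other subunits of that complex among the members, Aurkb and Birc5, averaged 0.152 and 0.131 FPKM.

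The remaining mitosis genes overlapped between groups. Tpx2, which activates Aurora A at the spindle, averaged 0.976 FPKM, Bub1, a spindle checkpoint kinase, 0.690 FPKM, and Aurka itself 0.411 FPKM. Cdca3, linked to the destruction of a mitotic inhibitor, averaged 0.471 FPKM. Of the kinetochore genes, Cenpa, the histone H3 variant of centromeres, averaged 0.408 FPKM, the motor gene Cenpe 0.0786 FPKM and Cenpf 0.0180 FPKM. The spindle genes Kif11, a motor, and Nusap1, a microtubule binder, averaged 0.251 and 0.181 FPKM. Plk1, the polo-like kinase of mitosis, averaged 0.0945 FPKM on 1, 1 and 7 reads with rmMETRNL and 7, 1 and 2 reads with vehicle, and shares 15.2% of its words with the pseudogene Plk-ps1. At 1 to 9 reads a library, Plk1 and Cenpf could not show a difference of moderate size.

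By their medians, replication genes stood above mitosis genes in each of the 6 libraries. The median level of the 10 replication genes was 1.44, 1.50 and 1.48 FPKM in rmMETRNL libraries 1, 2 and 3, against 1.50, 1.61 and 1.56 FPKM in vehicle libraries 1, 2 and 3. The median level of the 22 mitosis genes was 0.371, 0.381 and 0.384 FPKM with rmMETRNL, against 0.303, 0.348 and 0.338 FPKM with vehicle. The ratio of the medians was 3.89, 3.93 and 3.85 with rmMETRNL, against 4.94, 4.65 and 4.63 with vehicle. It averaged 3.89 ± 0.0367 with rmMETRNL and 4.74 ± 0.175 with vehicle (SD, n = 3 each), and the groups did not overlap. With geometric means in place of medians, the ratio was 6.35 ± 0.640 with rmMETRNL and 6.33 ± 0.605 with vehicle, and the groups overlapped. A median rests on the few genes in the middle of a list, and no test was made of a score over the members.

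Counted in reads, the groups lay close. Reads on the mitosis genes other than Mki67 numbered 602, 536 and 530 in rmMETRNL libraries 1, 2 and 3, against 516, 514 and 675 in vehicle libraries 1, 2 and 3, which is 39.0, 34.0 and 35.7 CPM (reads scaled to library size) with rmMETRNL and 34.3, 38.8 and 37.2 CPM with vehicle. The ranges overlapped. Among all members of each role, 5 replication genes had a positive and 5 a negative log2 fold change without a filter, and 11 mitosis genes a positive and 11 a negative one, with medians of -0.01 and -0.00, where the median over all 24868 genes with a read was 0.0021. Among those tested, the medians were 0.02 for 7 replication genes and 0.07 for 2 mitosis genes. The median of those 2, Mki67 and Bub1b, was 0.01 without rmMETRNL library 3 and 0.12 without rmMETRNL library 1.

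**Figure D4:**
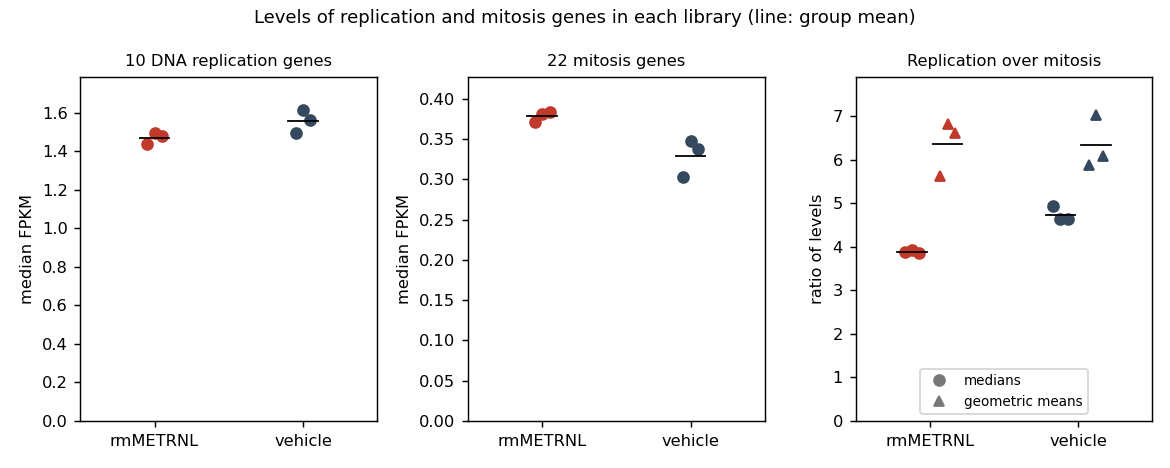
Median FPKM of the 10 replication genes (left) and 22 mitosis genes (middle) in each rmMETRNL and vehicle library, and the ratio of the 2 levels (right) from medians (circles) and geometric means (triangles), with lines at the group means. By medians the ratio averages 3.89 with rmMETRNL and 4.74 with vehicle, and by geometric means 6.35 and 6.33.

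The genes of G1 phase, in which a cell commits to replication, were led by E2f1, a transcription factor that switches on replication genes. It had 4.45, 4.79 and 3.95 FPKM with rmMETRNL, against 4.50, 4.86 and 4.13 FPKM with vehicle (log2 fold change -0.03, SE 0.08, limma adjusted p = 0.915). The D cyclins, partners of CDK4 and CDK6, differed in level. Ccnd3 had 2.17, 2.48 and 2.76 FPKM with rmMETRNL, against 2.70, 2.40 and 2.31 FPKM with vehicle (log2 fold change -0.00, SE 0.09, limma adjusted p = 0.992). Ccnd1 was nearly silent, with a mean of 0.0616 FPKM on 2 to 6 reads per library, some of which may belong to a gene that covers 23.4% of its exon bases.

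Ccnd2 had 1.87, 1.76 and 2.23 FPKM in rmMETRNL libraries 1, 2 and 3, against 1.60, 1.64 and 1.70 FPKM in vehicle libraries 1, 2 and 3. All 3 rmMETRNL values were above the vehicle values, and the log2 fold change of 0.15 (SE 0.09) did not pass (limma adjusted p = 0.476). Like Mki67, Ccnd2 is long, at 9409 bases, and highest in rmMETRNL library 3. Without that library its log2 fold change was 0.09, and the part of gene length in its value was not tested. Among shorter members, Plk2, Ccne1 and Ccne2, at 4491, 2662 and 3495 bases, were also highest in that library. The long genes Cenpf and Cenpe, at 15433 and 8620 bases, were not. Ccnd3 was 1.16 to 1.69 times as high as Ccnd2 in 6 of 6 libraries, and 3.25 to 4.72 times with the longest coding transcript as length. The cyclin E genes, partners of CDK2 at the start of S phase, were lower. Ccne1 had 0.677, 1.01 and 1.11 FPKM with rmMETRNL, against 0.942, 0.731 and 0.495 FPKM with vehicle. Ccne2 averaged 0.252 FPKM and shares 17.4% of its exon bases with Ints8.

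Plk2 and Plk3 carry the name of the mitotic kinase Plk1 but are known as early-response and stress-inducible genes, Plk2 being also a target of p53. They were by far the most abundant members. Plk2 (ENSMUSG00000021701, chromosome 13, 110395046 to 110400844, GRCm38) had 183, 188 and 200 FPKM in rmMETRNL libraries 1, 2 and 3, against 173, 157 and 163 FPKM in vehicle libraries 1, 2 and 3. Each rmMETRNL value was above each vehicle value, at 190 ± 8.33 FPKM with rmMETRNL and 164 ± 8.22 FPKM with vehicle (SD, n = 3 each). Its log2 fold change of 0.21 (SE 0.05) was the largest of the 14 members tested on this scale, which shrinks those of low genes, and had the smallest p. It did not pass (limma adjusted p = 0.233; voom on the recovered reads, 0.20, adjusted p = 0.0962). By voom, Ccnd2, at 0.22, Rrm1, at 0.21, and Mcm2, at -0.27, lay further from 0. When each library was left out in turn its log2 fold change stayed between 0.18 and 0.25.

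Plk3 (ENSMUSG00000028680, chromosome 4, 117128655 to 117133963, GRCm38) had 109, 104 and 99.95 FPKM with rmMETRNL, against 122, 107 and 109 FPKM with vehicle. The groups overlapped, and its log2 fold change of -0.11 (SE 0.06) did not pass (limma adjusted p = 0.471). In these libraries Plk2 was 1.42 to 2.00 times as high as Plk3, and 824 to 6496 times as high as Plk1, whose level rests on 1 to 7 reads. With the longest coding transcript as length, these were 2.14 to 3.01 times and 1322 to 10419 times.

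A longer list of 47 further replication genes gave a like picture. Of these, 26 had a mean of at least 1 FPKM, and of those 0 passed the limma test and 0 voom, with 11 positive and 15 negative log2 fold changes and a median of -0.02. An unadjusted p under 0.05 was found in 2 of the 26, which were also the 2 whose groups did not overlap, against 14.7% and 21.5% of all genes tested. Chaf1b, a subunit of the chaperone that places histones on new DNA, had 9.50, 8.64 and 8.01 FPKM with rmMETRNL, against 7.06, 6.95 and 7.32 FPKM with vehicle (log2 fold change 0.26, SE 0.07, limma adjusted p = 0.238). Slbp, which binds the stem-loop of histone transcripts, had 7.66, 7.38 and 6.43 FPKM with rmMETRNL, against 6.07, 5.73 and 6.02 FPKM with vehicle (log2 fold change 0.23, SE 0.07, limma adjusted p = 0.270). Pold1 and Dnmt1, the next by p, had log2 fold changes of -0.27 and -0.09 and did not pass. The most abundant of the list was Cdt1, which loads the MCM helicase in G1, at 17.5, 17.4 and 16.5 FPKM with rmMETRNL, against 20.5, 16.1 and 17.1 FPKM with vehicle. It was 5.95 to 12.5 times as high as Gmnn, the gene of its inhibitor geminin, in 6 of 6 libraries.

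Of 52 further mitosis genes, 44 had a mean below 1 FPKM, and the median of the list was 0.142 FPKM. Of the 8 tested, 4 had a positive and 4 a negative log2 fold change, and 0 passed limma or voom. Of these 8, 1 had an unadjusted p under 0.05, against 14.7% of all genes tested. This was Ckap2l, which encodes a spindle protein. It had 4.27, 4.61 and 5.24 FPKM with rmMETRNL, against 3.09, 2.79 and 3.34 FPKM with vehicle. The groups did not overlap, and the log2 fold change of 0.48 (SE 0.09) was above that of any member but did not pass (limma adjusted p = 0.180; voom adjusted p = 0.0551). Incenp, Ccnf and Cks2 followed, with log2 fold changes of -0.14, 0.13 and 0.11 that did not pass. Cks2, a small subunit bound to cyclin-dependent kinases, was the most abundant at a mean of 16.8 FPKM.

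Of 24 kinases, phosphatases and E2F factors of the cell cycle, 17 were tested, 9 with a positive and 8 with a negative log2 fold change, and 0 passed limma or voom. Cdk4, the partner of the D cyclins, was the most abundant, with 42.4, 39.7 and 38.4 FPKM with rmMETRNL, against 37.4, 42.9 and 41.7 FPKM with vehicle. Those with an unadjusted p under 0.05 numbered 2, both lower with rmMETRNL, against 14.7% of all genes tested. Groups did not overlap in 2 of the 17 that were higher and 1 that was lower with rmMETRNL, against 10.9% and 10.6% of all genes tested. Cdk7, the kinase that activates other cyclin-dependent kinases and also acts in transcription, had 3.91, 3.68 and 4.29 FPKM with rmMETRNL, against 4.58, 4.78 and 5.19 FPKM with vehicle (log2 fold change -0.24, SE 0.07, limma adjusted p = 0.263). Lin37, a subunit of the DREAM complex that represses cell cycle genes in resting cells, overlapped between groups (log2 fold change -0.35, SE 0.13, limma adjusted p = 0.312). Lin52 of the same complex and Pkmyt1, an inhibitor of CDK1, had log2 fold changes of 0.21 and -0.25.

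Genes that hold back the cell cycle included some of the most abundant genes of these lists. Of 19 inhibitor genes, 15 had a mean of at least 1 FPKM and 10 of at least 10 FPKM, and the median of the list was 12.1 FPKM, against 1.50 FPKM for the replication members and 0.409 FPKM for the mitosis members. Cdkn1a, which encodes the CDK inhibitor p21, had 274, 294 and 271 FPKM with rmMETRNL, against 293, 270 and 281 FPKM with vehicle. Its log2 fold change was -0.01, and it stood 3.82 to 4.33 times above Pcna in 6 of 6 libraries. Of the 15 tested, 11 had a positive and 4 a negative log2 fold change, with a median of 0.05, and 0 passed limma or voom. In 6 of the 15 the unadjusted p was under 0.05, against 14.7% of all genes tested, 5 of them higher and 1 lower with rmMETRNL, and in the same 5 the groups did not overlap, against 10.9% of all genes tested for that direction.

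Those 5 were Cdkn2d, which encodes the CDK4 inhibitor p19, the atypical cyclin gene Ccng2, and Tob2, Btg1 and Btg2 of the antiproliferative BTG/TOB family. Cdkn2d had 22.2, 22.3 and 22.9 FPKM with rmMETRNL, against 20.2, 18.3 and 18.6 FPKM with vehicle (log2 fold change 0.23, SE 0.05, limma adjusted p = 0.216). Ccng2 had 30.0, 33.1 and 33.1 FPKM with rmMETRNL, against 26.7, 27.3 and 27.4 FPKM with vehicle (log2 fold change 0.23, SE 0.05, limma adjusted p = 0.219). The log2 fold changes of Tob2, Btg1 and Btg2 were 0.26, 0.14 and 0.22, with adjusted p-values of 0.244, 0.252 and 0.261. Gadd45g, a stress-inducible gene that can block CDK1, had 28.1, 24.1 and 22.2 FPKM with rmMETRNL, against 34.4, 30.7 and 27.8 FPKM with vehicle (log2 fold change -0.31, SE 0.11, limma adjusted p = 0.287).

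Cdkn1a and Ccng1, which are known targets of the tumour suppressor p53, had log2 fold changes of -0.01 and -0.15, with adjusted p-values of 0.963 and 0.452. Mdm2, a p53 target that encodes its ubiquitin ligase, had 238, 247 and 259 FPKM with rmMETRNL, against 181, 186 and 189 FPKM with vehicle. The groups did not overlap, and its log2 fold change of 0.42 (SE 0.05) did not pass limma (adjusted p = 0.138) but passed voom (adjusted p = 0.00435). The differences between these genes were not tested.

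**Figure D5:**
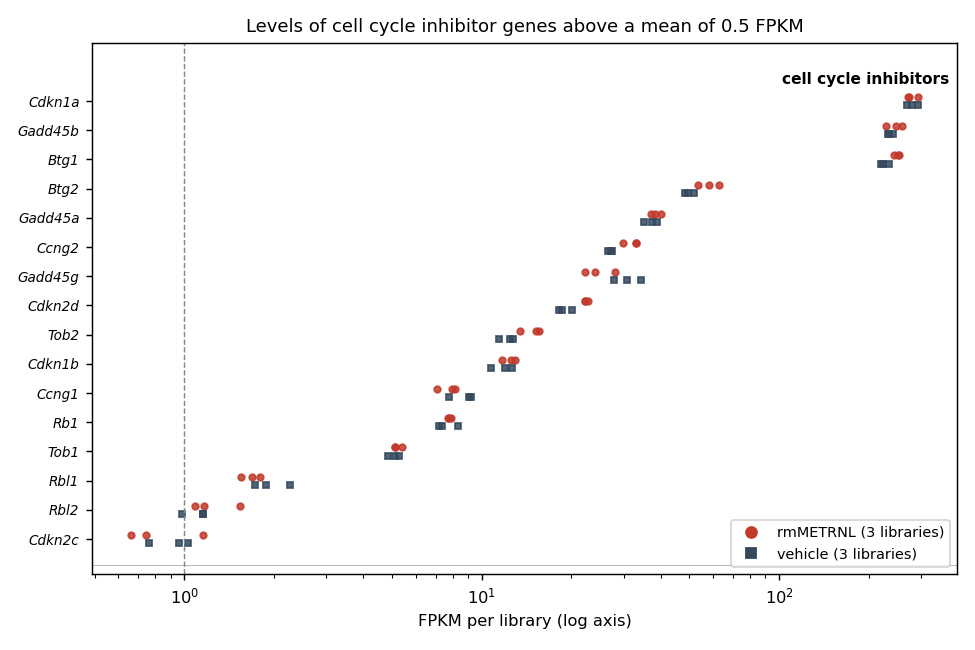
Level in FPKM, on a logarithmic axis, of the 16 cell cycle inhibitor genes with a mean above 0.5 FPKM, with 3 rmMETRNL libraries as circles and 3 vehicle libraries as squares. Cdkn1a, Gadd45b and Btg1 lie near the right edge, at 220 FPKM or more in each library, and rmMETRNL values lie wholly above vehicle values in Cdkn2d, Ccng2, Tob2, Btg1 and Btg2.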

How the data were processed

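RNA-seq of 6 libraries was deposited by the authors as a table of FPKM values for 54532 genes, with each gene's name, position and length. Per the labels' protocols, libraries were made with an Illumina TruSeq kit from 1 ug of total RNA. Per the submitters' processing notes, the builds were GRCm38 and mm10. Aligner, counter, annotation and strand setting were not given in the sources used here, so reads of overlapping genes cannot be told apart. Gene coordinates matched GENCODE M21 for 53499 of 54409 genes (98.3%).

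The deposited FPKM values multiplied by gene length came out as whole reads (tolerance 0.05 reads) for 100% of values, which gave the reads of each library. As whole counts had been the other case in the plan, the test for FPKM was kept. A limma model (limma 3.58.1, R 4.3.3) with a trended prior variance was fitted to log2(FPKM + 1), a scale that understates changes of low genes, for the 9867 genes averaging 1 FPKM or more over all 6 libraries. Its test was two-sided, with Benjamini-Hochberg adjustment over all of them and a threshold of 0.05. Voom on the recovered reads was run beside it. Libraries of a group differed from each other by more than sampling noise. Intervals for counting error were not added.

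The members and the lists were chosen with earlier results of these data known, so lists are described by counts and medians and have no test. All 40 members are named, of each longer list up to 4 tested genes with the smallest unadjusted p and the most abundant gene, and Mdm2. Further inhibitors with an unadjusted p under 0.05 were named after their values were seen. Gene names were matched to RefSeq promoter windows (GRCm38.p6). Shared words of 31 bases and shared exon bases on either strand were counted in GENCODE M21, and shares over 10% are stated. These held for 7 and 5 of the 40 members.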

Additional observations from a re-analysis of the deposited data

How the results depend on the processing

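The call of 0 members at an adjusted p of 0.05 held under each setting tried. These were a pseudocount of 0.1, no filter, a minimum of 5 FPKM, median-of-ratios scaling, voom, the replicate block and leaving out each library. Over all genes, limma with no filter called 5 and voom 61, against 0 in the other settings. The replicate block called 0 members and 0 genes (lowest adjusted p = 0.221). Same-numbered libraries did not deviate together (correlations of -0.0212, 0.0074 and -0.0454 for numbers 1, 2 and 3), so the numbers were not taken as pairs. Of 158 values of single members under the alternatives, 148 kept their direction and their side of the threshold and 10 turned, all on leaving out a library. These were in Ccnd3 (-0.063 to 0.060 over the libraries left out), E2f1 (-0.079 to 0.033), Mcm4 (-0.039 to 0.11) and Mcm6 (-0.097 to 0.036). When libraries were left out, the median of the replication members lay between -0.03 and 0.09 and that of the mitosis members between 0.01 and 0.12.

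The ratio of replication to mitosis level, 3.89 with rmMETRNL and 4.74 with vehicle, was 6.35 and 6.33 with geometric means. It was 4.49 and 5.28 with the longest coding transcript as length, and 3.73 and 4.53 without Pcna and Mki67, both settings chosen after seeing the data. Leaving out a library gave 3.87 to 3.91 with rmMETRNL and 4.64 to 4.79 with vehicle. Members without overlap between groups numbered 3. They numbered 7 with no filter, 1 with a minimum of 5 FPKM and 3 to 6 when a library was left out, where fewer values have to lie apart. Without vehicle replicate 2 they numbered 6, and without rmMETRNL replicate 1, rmMETRNL replicate 2 or vehicle replicate 3 they numbered 5. At a minimum of 5 FPKM no mitosis member was left, so neither their median nor the ratio had a value. In the promoter search, the core GGCGGGAA in place of the longer E2F motifs was found in 2 of 9 replication genes (22.2%), 0 of 19 mitosis genes and 2.52% of all genes. Depth limits the mitosis genes, as a mitosis gene other than Mki67 had a median of 16 to 22 reads per library.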
